A study of Mus musculus with 12 samples.

Results

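The 39 interferon-stimulated genes described here were chosen by name and matched by gene symbol in the deposited tables of hair follicle stem cells (HFSCs). They were read among 21942 genes in all, from a table of 17885 genes for the Eed experiment and a table of 21915 genes for the hair cycle. All 39 were in the hair cycle table and 36 in the Eed table, where Ifit3, Mx2 and Epsti1 were not analysed. HFSCs, the stem cells of the follicle bulge, had been sorted from back skin of C57BL/6J mice by EpCAM, CD34 and high α6-integrin in the absence of Sca1, and were profiled by RNA-seq in 12 libraries. The anagen group held 3 libraries of wildtype mice aged 28 to 30 days, with follicles in growth, and the telogen group 3 libraries of wildtype mice aged 50 to 52 days, with follicles at rest, so that age and stage cannot be told apart. The Eed iKO group held 3 libraries of mice aged 70 days that carried K15-CrePGR, a Cre driven by a promoter active in the bulge and switched on by RU-486, with Eed fl/fl, which the labels call Eed -/-, and that had received RU-486 on the skin. The control group held 3 libraries labelled wildtype at 70 days whose mice, by the study's methods, received the ethanol vehicle, so that RU-486 and genotype cannot be told apart.

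Interferons are secreted proteins that cells release when they sense foreign or misplaced nucleic acid. Type I and type III interferons act through receptors and the kinases JAK1 and TYK2 on a complex that holds STAT2 and IRF9 and binds a DNA element called ISRE, while interferon gamma acts on an element called GAS. The genes switched on encode sensors, transcription factors and effectors that block viral RNA, protein synthesis or entry, and stem cells of several tissues are known to keep some of them on without infection.

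The promoters of members whose level differed between anagen and telogen, and that of Isg15, which encodes a ubiquitin-like modifier, are shown because they carry the interferon elements in different ways. The sequences are from RefSeq (GRCm38.p6), run from base 250 to base 46 before the annotated start, and are given 5′ to 3′ on the strand of the gene. Capitals mark ISRE matches (GAAANNGAAA or its reverse complement TTTCNNTTTC) in Gbp2 and Isg15 and GAS matches (TTCNNNGAA, which reads the same on both strands) in Irf1 and Ifit2.
Gbp2 (chr3:142620413-142620617, plus strand): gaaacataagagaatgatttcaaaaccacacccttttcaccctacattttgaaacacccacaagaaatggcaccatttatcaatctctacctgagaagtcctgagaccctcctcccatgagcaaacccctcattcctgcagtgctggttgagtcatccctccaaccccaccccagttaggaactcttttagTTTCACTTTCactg
Isg15 (chr4:156200864-156201068, minus strand): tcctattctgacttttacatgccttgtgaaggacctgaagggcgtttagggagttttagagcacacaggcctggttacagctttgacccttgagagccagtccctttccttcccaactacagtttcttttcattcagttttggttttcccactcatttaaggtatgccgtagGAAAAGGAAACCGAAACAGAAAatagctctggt
Irf1 (chr11:53769764-53769968, plus strand): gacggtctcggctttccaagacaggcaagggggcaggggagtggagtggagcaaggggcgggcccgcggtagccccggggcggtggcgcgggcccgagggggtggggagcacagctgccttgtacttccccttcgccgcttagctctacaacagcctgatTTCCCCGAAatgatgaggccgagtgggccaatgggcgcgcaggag
Ifit2 (chr19:34550444-34550648, plus strand): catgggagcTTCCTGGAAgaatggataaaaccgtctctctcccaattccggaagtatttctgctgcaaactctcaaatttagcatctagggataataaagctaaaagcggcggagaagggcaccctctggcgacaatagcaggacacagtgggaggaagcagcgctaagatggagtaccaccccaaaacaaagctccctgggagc
Trim25 (chr11:88999153-88999357, plus strand): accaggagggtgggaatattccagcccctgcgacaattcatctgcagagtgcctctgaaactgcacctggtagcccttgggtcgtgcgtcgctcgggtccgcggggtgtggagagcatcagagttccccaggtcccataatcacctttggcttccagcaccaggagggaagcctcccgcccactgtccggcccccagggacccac
Gbp2 held 1 ISRE match, which began 59 bases before the RefSeq start. The last 16 bases of its printed window lay on an exon of Gbp2 in GENCODE, and the match lay within these bases. By the GENCODE annotation the match is thus inside the gene and not before it. Isg15 held 3 ISRE matches that overlapped one another and began 78, 72 and 66 bases before the start. The GAS match of Irf1 began 90 bases before its start and that of Ifit2 241 bases before. For Irf1 and Ifit2 the first of 2 RefSeq starts is printed, and the window of the second held no ISRE or GAS match. Trim25 held neither in its window. RefSeq promoters from 250 bases before to 50 bases after a start were found for 30 members, of which 15 (50.0%) held an ISRE match against 3.99% of all 27025 genes with such a promoter. A gene with several promoters was counted if any of them held a match. A GAS match was found for 8 of the 30 (26.7%) against 9.55% of all genes, and in Bst2 and Ifitm3, 2 members, an ISRE and a GAS match overlapped. These matches describe the letters in the window and not binding, and Usp18 is among the members with no promoter entry.

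Levels are given as normalized counts, which in the Eed experiment were the reads assigned to a gene divided by a size factor of the library. In the hair cycle libraries 41.1% to 51.3% of values were whole multiples of 1 constant, so such a factor was not shown there. Differences are given as log2 fold changes of the normalized count plus 1 from limma, with the standard error (SE) and the Benjamini-Hochberg adjusted p over all genes tested. Whole reads could be recovered for the Eed experiment and came to 33269583 to 57063586 per library, while the hair cycle libraries have no known depth and their normalized counts summed to 11370984 to 13186648. The tables were normalized apart, so levels are compared within a table only. The sorted cells carried their markers, with Cd34 at 31535 to 47502 normalized counts in the Eed experiment. In the hair cycle libraries Cd34 was lower in anagen, at 2955 to 4144 against 6433 to 9159 in telogen (log2 fold change -1.21, SE 0.20, adjusted p = 0.00382), and Itga6 was higher in anagen (log2 fold change 0.97, SE 0.21, adjusted p = 0.0144). The part of these sorting markers in the differences between the stages was not tested. Telogen replicate 1 stood apart with Krt5, a basal keratin, at 50461 against 131957 to 186721 in the other hair cycle libraries. Eed itself had a log2 fold change of -0.01 (adjusted p = 0.993) between the libraries labelled Eed iKO and control, so the targeted gene did not check the labels, and every direction below rests on them. A sum over the transcripts of a gene cannot tell whether a part of them was deleted.

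Most of the interferon-stimulated genes were present at low to moderate levels in unchallenged HFSCs, and a few stood far above the rest. In the Eed experiment the 6 highest means over all libraries were those of Trim25 (7994 normalized counts), Ifitm3 (3881), Eif2ak2 (1853), Ifi27 (1593), Ifih1 (1548) and Stat2 (1337). Per kilobase of the longest coding transcript the order changed, with Ifitm3 at 5724, Ifi27 at 1631 and Trim25 at 1430.1 normalized counts per kilobase. Trim25 encodes a ubiquitin ligase that modifies the RNA sensor RIG-I, and Ifitm3 a membrane protein that blocks viral entry. In the hair cycle libraries the 6 highest means, taken over both stages, were those of Trim25 (2686), Eif2ak2 (899), Ifih1 (517), Ifi27 (459), Ifitm3 (377) and Stat2 (269.9). The order per kilobase depended on the stage, with telogen means of 735 for Trim25, 682 for Ifitm3 and 505 for Ifi27 and anagen means of 226, 432 and 436 normalized counts per kilobase. At the other end Oas2 and Epsti1 were listed at 0 in all 6 hair cycle libraries, and Oas2 was at 0 in the control libraries. Rtp4 was listed at 0 in the 3 telogen libraries, with 2.52, 4.19 and 0 in anagen replicates 1, 2 and 3.

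**Figure D1:**
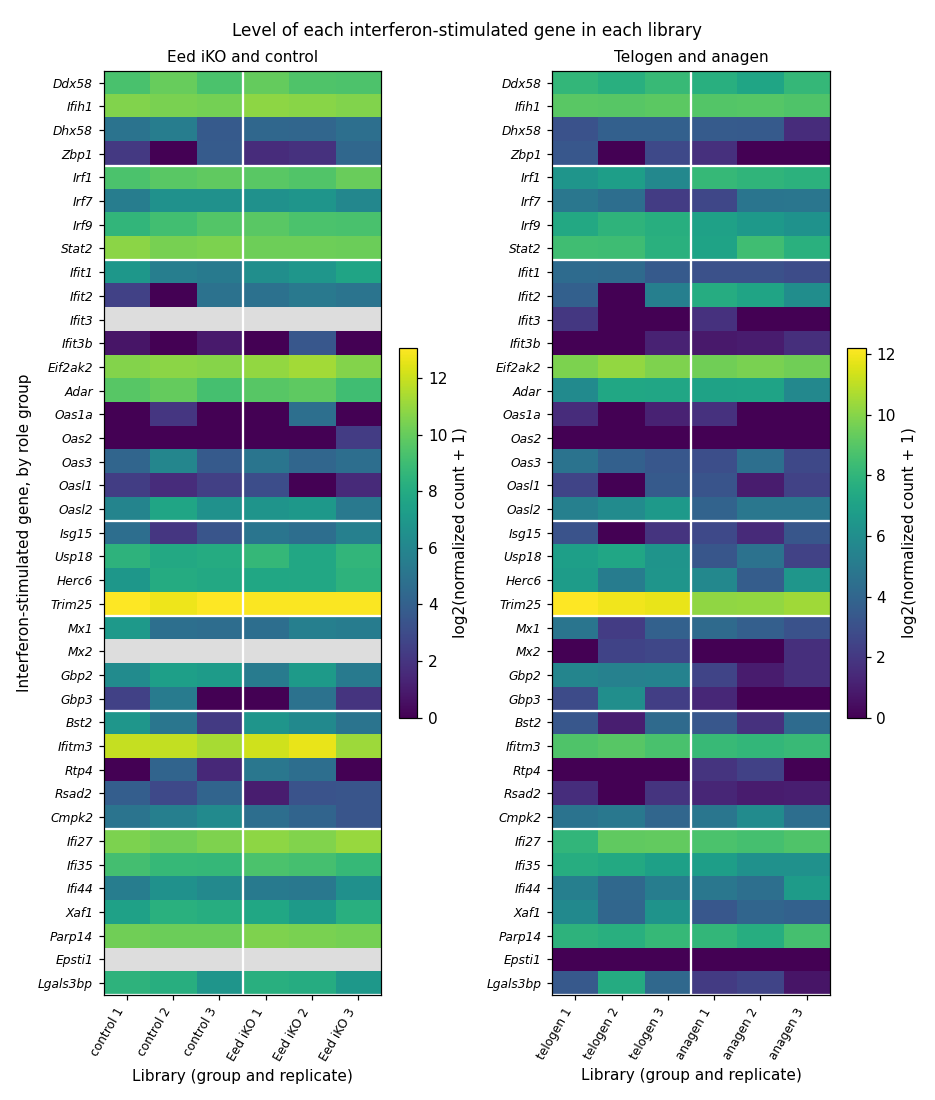
Heat map of log2(normalized count + 1) for each of the 39 genes (rows, white lines between role groups) in each library (columns), with the Eed experiment on the left and the hair cycle on the right, grey where a gene was not analysed in that table. The tables were normalized apart, so colours are to be compared within a panel; Trim25 has the highest mean in both panels, and Oas2 and Epsti1 are at 0 throughout the hair cycle panel.

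The first comparison asked how these genes differ between growing and resting follicles. Trim25, Usp18 and Gbp2 were lower in anagen than in telogen, and Irf1 and Ifit2 were higher. Of the 39 members, 27 passed the filter on low values, and 5 of them (18.5%) had an adjusted p under 0.05 against 11.6% of all 13457 genes tested, 3 lower in anagen (11.1% against 4.35%) and 2 higher (7.4% against 7.22%). The study's methods set a log2 fold change beyond 2 in either direction together with a p below 0.05, read here as unadjusted. Of the members, 4 of 27 passed these thresholds against 5.1% of all genes, with 3 lower (background 1.77%) and 1 higher (background 3.33%). The log2 fold change was above 0 for 8 members (29.6% against 50.6% of all genes) and below 0 for 19, with a median of -0.458 against 0.013 over all genes. With bulk libraries, fewer cells with a transcript and less transcript per cell cannot be told apart.

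Of the ISG15 pathway, which attaches and removes the modifier ISG15, Trim25 and Usp18 were lower in anagen. Trim25 (ENSMUSG00000000275.16, chromosome 11 from 88999376 to 89020293 of GRCm38, plus strand) had 4746, 3992 and 3589 normalized counts in telogen replicates 1, 2 and 3, against 1171, 1195 and 1423 in anagen replicates 1, 2 and 3. Each telogen library was above each anagen library by a wide gap. The telogen mean was 3.25-fold the anagen mean (log2 fold change -1.70, SE 0.19, adjusted p = 0.00032). Usp18 (ENSMUSG00000030107.10, chromosome 6 from 121245906 to 121270917, plus strand) encodes the protease that removes ISG15 from proteins and also restrains the type I interferon receptor. It had 116, 147 and 78.8 normalized counts in the telogen libraries, against 8.66, 23.7 and 4.32 in the anagen libraries. The groups did not overlap, and the telogen mean was 9.33-fold the anagen mean (log2 fold change -3.36, SE 0.64, adjusted p = 0.00749). Herc6, the ligase that attaches ISG15 in mice, overlapped between the groups, with 34.2 to 108 in telogen and 11.2 to 84.7 in anagen (log2 fold change -0.84, SE 0.73, adjusted p = 0.494), and shares 13.8% of its 31-base words with other genes, mainly a gene that lies over it. Isg15 itself was barely detected, with 7.58, 0 and 2.52 in telogen and 5.58, 1.78 and 8.49 in anagen, and did not pass the filter.

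Among the antiviral GTPases, which act on viral particles or on the membranes around pathogens, Gbp2 was lower in anagen. Gbp2 (ENSMUSG00000028270.12, chromosome 3 from 142620602 to 142638008, plus strand) had 46.5, 40.0 and 41.8 normalized counts in the telogen libraries, against 4.73, 0.893 and 2.08 in the anagen libraries. The telogen libraries lay close together and far above the anagen libraries. The telogen mean was 16.6-fold the anagen mean (log2 fold change -3.76, SE 0.71, adjusted p = 0.00725), and 4.9% of the 31-base words of its transcripts are shared with other genes, mostly Gbp2b. Its neighbour Gbp3, which did not pass the filter, had 5.82, 65.6 and 3.80 in telogen and 1.58, 0 and 0 in anagen, with telogen replicate 2 far above the rest. Mx1 overlapped between the groups, with 3.51 to 26.3 in telogen and 7.50 to 17.4 in anagen (log2 fold change 0.08, SE 0.82, adjusted p = 0.959), and Mx2 reached at most 5.05.

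Of the transcription factors, Irf1 was higher in anagen. Irf1 (ENSMUSG00000018899.16, chromosome 11 from 53770014 to 53778374, plus strand), an early target of interferon gamma and of inflammatory signals that itself binds interferon elements, had 80.8, 114 and 51.3 normalized counts in the telogen libraries, against 294, 252 and 227 in the anagen libraries. Every anagen library was above every telogen library, and the anagen mean was 3.14-fold the telogen mean (log2 fold change 1.70, SE 0.38, adjusted p = 0.0161). Irf9, the DNA-binding subunit of the complex at the ISRE, had 167, 241 and 199 in telogen and 125, 96.7 and 74.6 in anagen. Its groups did not overlap either, but lay in the opposite order, and the difference did not pass the test (log2 fold change -1.04, SE 0.36, adjusted p = 0.0858). Its partner Stat2 had 218 to 352 in telogen and 133 to 354 in anagen (log2 fold change -0.46, SE 0.38, adjusted p = 0.477). Irf7, which amplifies the production of type I interferon, had 3.56 to 27.3 in telogen and 5.14 to 26.6 in anagen (log2 fold change 0.24, SE 0.90, adjusted p = 0.888).

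Of the RNA-binding effectors, Ifit2 was higher in anagen while the other members tested had log2 fold changes below 0. Ifit2 (ENSMUSG00000045932.12, chromosome 19 from 34550694 to 34576419, plus strand), whose protein binds RNA and holds back translation, had 12.6, 0 and 38.0 normalized counts in the telogen libraries, against 188, 139 and 62.4 in the anagen libraries. The groups did not overlap but varied widely within themselves (log2 fold change 3.88, SE 1.11, adjusted p = 0.0451). Without telogen replicate 2, the library at 0, the log2 fold change was 2.37. Ifit1, from the same gene cluster, had 18.4, 17.8 and 10.1 in telogen and 7.10, 7.15 and 6.25 in anagen, a difference in the other direction that did not pass the test (log2 fold change -1.03, SE 0.69, adjusted p = 0.362). Oasl2, one of the OAS-like proteins, had 38.4, 58.7 and 92.1 in telogen and 13.9, 27.3 and 27.3 in anagen, without overlap (log2 fold change -1.40, SE 0.56, adjusted p = 0.133). Eif2ak2, the kinase PKR that stops translation on double-stranded RNA, had 905 to 1219 in telogen and 746 to 852 in anagen, without overlap (log2 fold change -0.36, SE 0.21, adjusted p = 0.308). The editing enzyme Adar, at -0.17 (SE 0.53) on the log2 scale, and the synthetase Oas3, at -0.58 (SE 0.77), overlapped between the groups. Ifit3, Ifit3b, Oas1a and Oasl1 were at 10.1 normalized counts or below in every library. The values of the first 3 of these are also uncertain because copies share sequence, with 61.8% of the 31-base words of Ifit3 and 55.2% of those of Ifit3b found in other genes, mainly each other, and 68.8% of those of Oas1a, mainly in Oas1g.

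The sensors and membrane effectors held no gene past the adjusted p. The RNA sensors Ddx58 (RIG-I), Ifih1 (MDA5) and Dhx58 had log2 fold changes of -0.34 (SE 0.33), -0.17 (SE 0.22) and -0.70 (SE 0.81). Of these, Ifih1 was higher in every telogen library (523 to 569.6) than in every anagen library (456 to 507), by a narrow margin, and Zbp1 reached at most 9.02 normalized counts. Ifitm3 had 453, 518 and 416 in telogen and 302, 268 and 308 in anagen, without overlap (log2 fold change -0.65, SE 0.25, adjusted p = 0.115), and 20.5% of its 31-base words are found in other genes. Bst2, which tethers budding virus to the cell, had 1.06 to 18.0 in telogen and 2.30 to 18.1 in anagen (log2 fold change 0.23, SE 1.03, adjusted p = 0.902). Cmpk2, a mitochondrial nucleotide kinase, had 15.5 to 28.3 in telogen and 20.6 to 58.3 in anagen (log2 fold change 0.52, SE 0.60, adjusted p = 0.617), and its neighbour Rsad2 was at 2.59 or below.

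Lgals3bp, a secreted glycoprotein, had 9.72, 183 and 16.2 normalized counts in the telogen libraries, against 3.34, 4.73 and 0.614 in the anagen libraries. The difference passed the thresholds of the methods but not the adjusted p (log2 fold change -3.24, SE 1.07, adjusted p = 0.0763). Telogen replicate 2 was far above the rest, and the log2 fold change without that library was -1.99. The same library had 259.6 normalized counts of the MHC class II gene H2-Aa, a gene of antigen-presenting cells, against 2.84 to 24.9 in the others, and the part of such cells in this value was not tested. Xaf1, a protein that favours cell death, had 54.1, 15.4 and 76.9 in telogen and 9.08, 14.7 and 13.0 in anagen, so that the lowest telogen library almost met the highest anagen library (log2 fold change -1.66, SE 0.69, adjusted p = 0.149). Ifi35 had 194, 168 and 123 in telogen and 114, 70.9 and 70.3 in anagen, also without overlap (log2 fold change -0.93, SE 0.39, adjusted p = 0.145), and 16.8% of its exon bases lie on a gene of the opposite strand, from which its reads cannot be told apart. Ifi27, Ifi44 and Parp14 overlapped between the groups, with log2 fold changes of -0.12 (SE 0.33), 0.48 (SE 0.68) and 0.17 (SE 0.33).

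**Figure D2:**
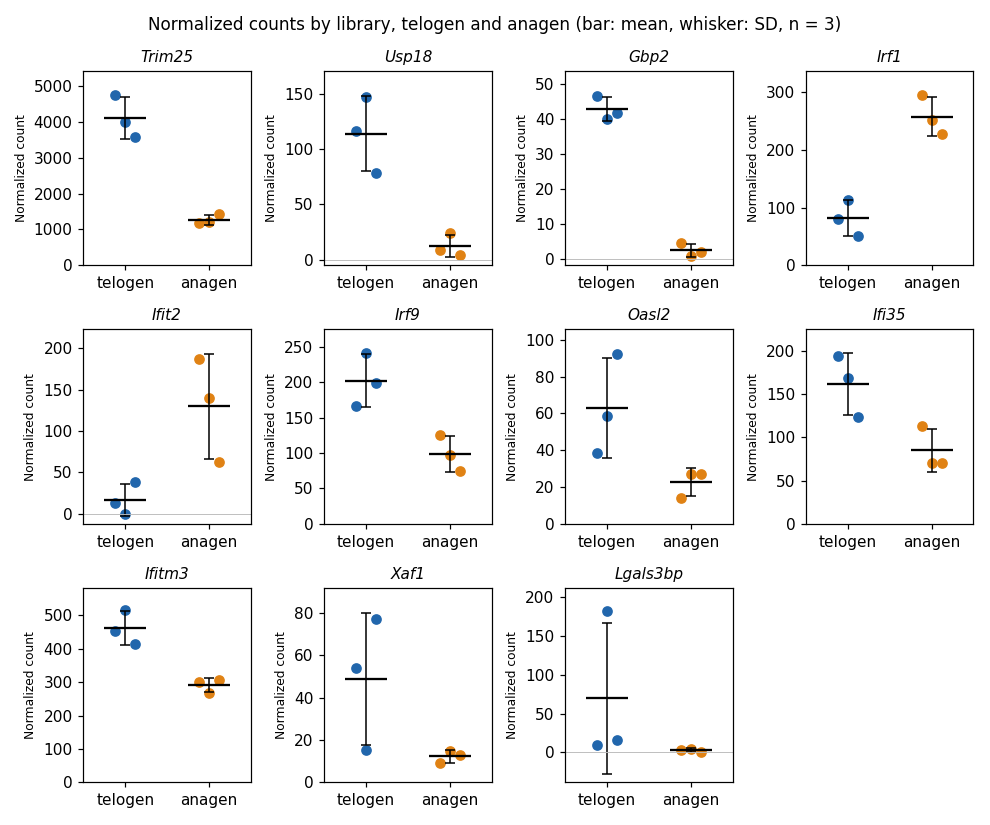
Normalized counts (vertical axes, linear, a separate scale in each panel) of the 11 genes with an unadjusted p under 0.05 in the 3 telogen and 3 anagen libraries, with the mean as a bar and the SD as a whisker. Irf1 and Ifit2 are higher in anagen and the other 9 lower, and in Lgals3bp the telogen mean rests on 1 library at 183.

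Counted together, 11 of the 27 members tested (40.7%) had an unadjusted p under 0.05 against 27.3% of all genes, 9 of them lower in anagen (33.3% of members against 12.2% of all genes) and 2 higher (7.4% against 15.1%). For 14 members (51.9%, against 33.3% of all genes) every library of one stage was above every library of the other, 12 lower in anagen (44.4% against 15.2%) and 2 higher (7.4% against 18.1%). Summed over the 39 members, normalized counts were 8877, 8950.1 and 8016 in telogen and 4848, 4845 and 5105 in anagen. Trim25 was the largest member, with means of 4109 in telogen and 1263 in anagen, and most of the difference between the sums lay in it. The calls of Irf1 and Ifit2 rested on every anagen library. Without anagen replicate 1, 2 or 3 the adjusted p from limma was 0.0911, 0.0707 and 0.0502 for Irf1 and 0.168, 0.129 and 0.0797 for Ifit2, while those of Trim25, Usp18 and Gbp2 were under 0.05 whichever library was left out. Without telogen replicate 1, the library that stood apart, all 5 were under 0.05.

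Other transcripts moved with the hair cycle in these libraries. All 5 proliferation markers were higher in anagen, with summed normalized counts of 613 to 804 in telogen and 17046 to 28320 in anagen. Of the 6 melanocyte markers 5 were tested, 4 with log2 fold changes above 0 in anagen and 1 below. Dct was higher in anagen (61.2 to 134 in telogen and 387 to 709 in anagen, adjusted p = 0.00187) and Mitf lower. The mean log2 level of the markers tested was 5.125 to 5.696 in telogen and 5.878 to 6.726 in anagen. Sums of normalized counts over the list went the other way, at 2882 to 3285 in telogen and 1410 to 1488 in anagen. Mlana was at 0 in 2 telogen libraries and 1 anagen library. Of the 6 fibroblast markers 4 were tested, and Col1a1 (adjusted p = 0.00928) and Dcn (adjusted p = 0.0106) were higher in anagen. Col1a2 had a lower mean in anagen (unadjusted p = 0.0204 and adjusted p = 0.108 from limma), as had Pdgfra (adjusted p = 0.586). The sums over the list overlapped, at 316 to 649 in telogen and 469 to 628 in anagen. No immune marker tested had an unadjusted p under 0.05, but many did not pass the filter. Those tested were 6 of 8 Langerhans and dendritic cell markers, 1 of 8 macrophage markers and 3 of 7 T cell markers. The sums in telogen and anagen were 173 to 463 and 112 to 241 for 8 Langerhans and dendritic cell markers, and 25.7 to 66.4 and 14.4 to 38.3 for 8 macrophage markers, of which Adgre1 was at 0 throughout. The sums of 7 T cell markers did not overlap, at 154 to 245 in telogen and 250.5 to 361 in anagen, with Nkg7 at 0 throughout. The part of these cells in the differences of the interferon-stimulated genes was not tested.

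The interferon pathway around these genes was examined with 5 lists that hold 39 further genes. Of 9 ligands, 7 were listed at 0 in every hair cycle library, Ifnb1 and Ifng among them. The others were Ifnk, an interferon of keratinocytes, at 1.90, 0 and 2.52 normalized counts in telogen with 1.59, 4.45 and 1.06 in anagen, and Ifna2 at 0 in telogen and at 0, 3.54 and 1.05 in anagen. The ligands were thus at or near 0, while all 6 receptor genes passed the filter, from Il10rb at a mean of 23.9 to Ifnar1 at 487 normalized counts. Of the receptors 0 passed the adjusted p, with Ifnar2, a chain of the type I receptor, at 120.2, 119.6 and 61.7 in telogen and 209.6, 139 and 233 in anagen (log2 fold change 0.97, SE 0.40, adjusted p = 0.144).

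Of 8 signal transduction genes tested 0 passed the adjusted p. Among those with an unadjusted p under 0.05, on the log2 scale, the kinase Jak1 was at 0.60 (SE 0.19) (adjusted p = 0.0702) and the adaptor Traf3 at 0.66 (SE 0.28) (adjusted p = 0.154), above 0 in anagen, and the kinase Ikbke was at -1.44 (SE 0.44) (adjusted p = 0.0571), below 0. Of 5 nucleic acid sensing genes tested, Mb21d1, which encodes the DNA sensor cGAS, was higher in anagen. It had 36.7, 34.5 and 29.0 normalized counts in the telogen libraries, against 128, 119 and 69.8 in the anagen libraries, without overlap (log2 fold change 1.59, SE 0.45, adjusted p = 0.0453). Tmem173, which encodes STING, the partner of cGAS, did not pass the filter, with 0.967, 0 and 13.9 in telogen and 8.68, 4.47 and 22.9 in anagen. Tlr3, an RNA sensor of endosomes, had 394 to 630.2 in telogen and 242 to 312 in anagen (log2 fold change -0.81, SE 0.27, adjusted p = 0.0813). Of 6 negative regulators tested, Socs3, an inhibitor of JAK kinases, was higher in anagen. It had 111, 88.5 and 80.6 in telogen and 253, 178 and 287 in anagen, without overlap (log2 fold change 1.33, SE 0.35, adjusted p = 0.0324). Nlrc5, an interferon-induced regulator of MHC class I genes, had 288, 66.0 and 186 in telogen and 34.1, 71.8 and 17.1 in anagen, with overlap (log2 fold change -2.10, SE 0.65, adjusted p = 0.0593).

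The second comparison asked whether these genes differ in HFSCs after induced ablation of Eed, a core subunit of the Polycomb complex PRC2, which places a repressive mark on histone H3. No interferon-stimulated gene passed the test in the libraries labelled Eed iKO. Of the 36 members measured, 29 passed the filter, and 0 of 29 had an adjusted p under 0.05 with limma, against 0.0267% of all 15008 genes tested. The count was also 0 with the quasi-likelihood test of edgeR and with DESeq2 on the recovered reads, tests that called 5 and 673 of all genes. For this comparison a figure legend of the study gives a fold change of 1.5, not on the log2 scale, with an adjusted p below 0.05. The methods set a log2 fold change beyond 1.5 together with a p below 0.05, read here as unadjusted. At the thresholds of the methods 0 members passed against 1.75% of all genes. Without control replicate 1 there were 4 past these thresholds, Isg15, Ifit1 and Bst2 higher and Cmpk2 lower, with 1 without control replicate 3 (Ifit2) and 1 without Eed iKO replicate 2 (Gbp2). At an unadjusted p under 0.05 alone 0 passed with limma, edgeR and DESeq2, against 14.7% of all genes with limma. The smallest unadjusted p from limma was 0.0534, for Ifit2. The log2 fold change was above 0 for 19 members (65.5% against 49.9% of all genes) with a median of 0.226 against -0.001 over all genes. The median was 0.088 without control replicate 3, 0.115 without Eed iKO replicate 1, 0.132 without control replicate 1 and 0.143 without Eed iKO replicate 2, and ran up to 0.25 without control replicate 2. In the fit of all libraries the median SE was 0.414 for the members and 0.277 for all genes.

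The 6 members with the largest log2 fold changes all had low counts. Ifit2 had 4.86, 0 and 29.9 normalized counts in control replicates 1, 2 and 3 (7, 0 and 33 reads) and 28.0, 38.5 and 31.6 in Eed iKO replicates 1, 2 and 3 (26, 29 and 32 reads). Control replicate 3 lay within the Eed iKO range and the other control libraries below it, so that the groups overlapped (log2 fold change 2.56, SE 1.18, adjusted p = 0.348). Isg15 (ENSMUSG00000035692.6, chromosome 4 from 156199424 to 156200818, minus strand) had 25.0, 3.25 and 9.97 in the control libraries (36, 3 and 11 reads) and 32.3, 25.2 and 51.4 in the Eed iKO libraries (30, 19 and 52 reads). The groups nearly met, at 25.0 and 25.2, without overlap (log2 fold change 1.75, SE 0.87, adjusted p = 0.377, 95% interval from -0.175 to 3.667). Cmpk2 had 31.2, 48.7 and 76.2 in the control libraries and 25.8, 17.3 and 9.89 in the Eed iKO libraries, lower in each Eed iKO library than in each control (log2 fold change -1.51, SE 0.71, adjusted p = 0.357). Rtp4, a chaperone of receptors that is induced by interferon, had 0, 17.3 and 1.81 in the control libraries and 35.5, 25.2 and 0 in the Eed iKO libraries (log2 fold change 1.40, SE 1.60, adjusted p = 0.734). Bst2 had 115, 33.6 and 3.63 in the control libraries and 113, 71.7 and 31.6 in the Eed iKO libraries (log2 fold change 1.29, SE 1.06, adjusted p = 0.611). Ifit1 had 120, 47.7 and 39.9 in the control libraries and 86.0, 117 and 199 in the Eed iKO libraries (log2 fold change 1.03, SE 0.58, adjusted p = 0.435). In Rtp4, Bst2 and Ifit1 the libraries of a group differed among themselves by more than the group means did from each other. Isg15, Rtp4 and Ifit1 also share 12.8%, 12.5% and 10.5% of their 31-base words with other genes.

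The members with high counts had differences that were small and measured with less error. Ifi27 had 1431, 1209 and 1482 normalized counts in the control libraries and 1820.4, 1523 and 2095 in the Eed iKO libraries (log2 fold change 0.39, SE 0.19, adjusted p = 0.358). Ifih1 had 1544, 1371 and 1302 in the control libraries and 1830.1, 1684 and 1554 in the Eed iKO libraries (log2 fold change 0.27, SE 0.17, adjusted p = 0.493). Parp14, an ADP-ribosyltransferase, had 1218, 1103 and 1109.8 in the control libraries and 1474, 1409 and 1285 in the Eed iKO libraries (log2 fold change 0.28, SE 0.17, adjusted p = 0.481). Each of these 3 genes was higher in every Eed iKO library than in every control. Stat2 was lower in every one, with 1802, 1322 and 1438 in the control libraries and 1181, 1162 and 1119 in the Eed iKO libraries (log2 fold change -0.39, SE 0.19, adjusted p = 0.365). With Isg15 and Cmpk2 they made 6 of 29 members (20.7%) without overlap, near the 20.2% of all genes, 4 higher in Eed iKO (13.8% against 10.2%) and 2 lower (6.9% against 10%). Trim25 varied little, with 8298, 6923 and 8571 in the control libraries and 8118, 7993 and 8061 in the Eed iKO libraries, a log2 fold change of 0.03 (SE 0.13) and a 95% interval from -0.266 to 0.325. Of the other members called in the hair cycle, Ifit2 is given above, and Usp18, Gbp2 and Irf1 had log2 fold changes of 0.25 (SE 0.35), -0.99 (SE 0.61) and 0.13 (SE 0.24) that did not pass the test. The control and Eed iKO means were 3423 and 4338 for Ifitm3, at 0.24 (SE 0.32) on the log2 scale, and 1685 and 2021 for Eif2ak2, at 0.24 (SE 0.19).

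**Figure D3:**
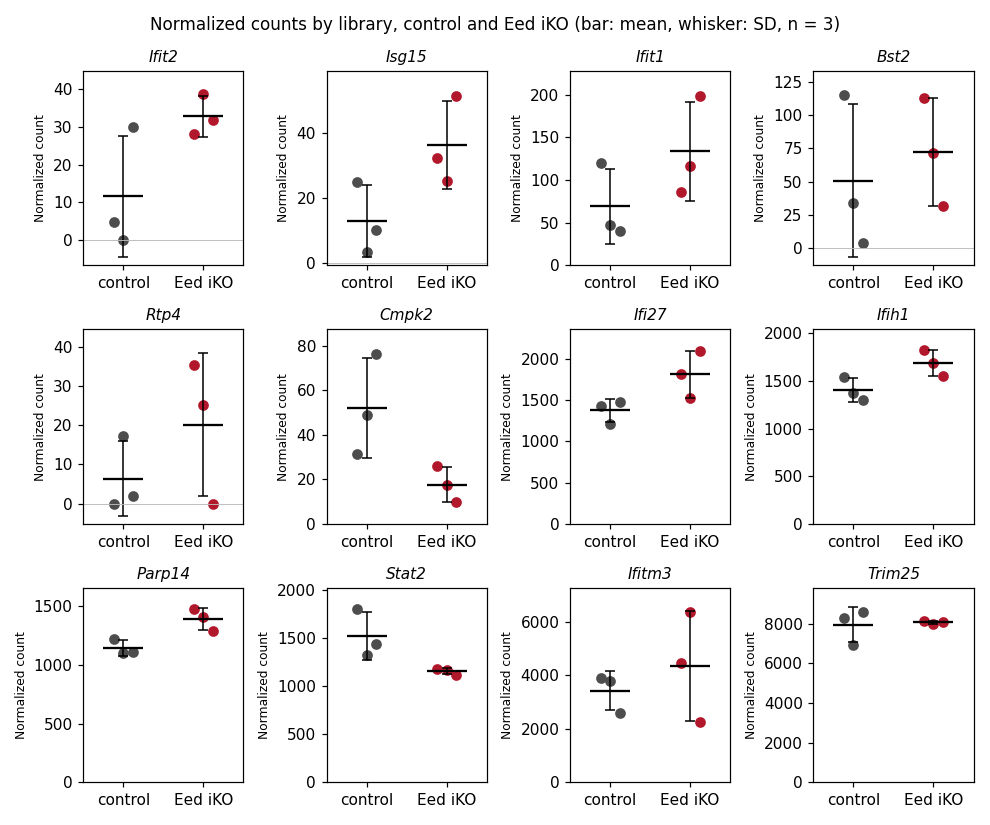
Normalized counts (vertical axes, linear, a separate scale in each panel) of 12 members in the 3 control libraries and the 3 libraries labelled Eed iKO, with the mean as a bar and the SD as a whisker. The 6 genes with the largest changes come first, with wide whiskers, and Trim25, the last panel, lies between 6923 and 8571 in all libraries.

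The remaining members tested, by role, were the sensors Ddx58 and Dhx58, with log2 fold changes of 0.06 (SE 0.27) and -0.25 (SE 0.76), and the transcription factors Irf7 and Irf9, with 0.23 (SE 0.53) and 0.38 (SE 0.29). Of the effectors, Adar was at -0.11 (SE 0.28), Oas3 at 0.05 (SE 0.80), Oasl2 at -0.39 (SE 0.64), Herc6 at 0.40 (SE 0.41) and Mx1 at -0.18 (SE 0.76) on the same scale. Ifi35 was at 0.24 (SE 0.28), Ifi44 at -0.39 (SE 0.61), Xaf1 at -0.25 (SE 0.41) and Lgals3bp at -0.06 (SE 0.51). In all of these the groups overlapped. The 7 members that were measured but did not pass the filter were Zbp1, Ifit3b, Oas1a, Oas2, Oasl1, Gbp3 and Rsad2, at 39 reads or fewer in each library. Oas1a and Ifit3b had 20 and 8 reads in Eed iKO replicate 2 and at most 3 in each other library.

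Of the pathway genes in the Eed experiment, 0 of the 6 receptors, 8 signal transduction, 6 nucleic acid sensing and 8 negative regulator genes tested passed the adjusted p. Among those with an unadjusted p under 0.05 were Ifngr1, a chain of the interferon gamma receptor (log2 fold change 0.58, SE 0.23, adjusted p = 0.273), the adaptors Myd88 (log2 fold change 0.81, SE 0.34, adjusted p = 0.307) and Ticam1 (log2 fold change -0.52, SE 0.18, adjusted p = 0.22), and the phosphatase Ptpn2 (log2 fold change 0.44, SE 0.17, adjusted p = 0.261). The ligands measured, Ifna2 and Ifnk, had 12 reads or fewer in every library and did not pass the filter.

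No marker of another cell type passed the adjusted p between the libraries labelled Eed iKO and the controls, and some differed at an unadjusted p. Cd207, the defining gene of Langerhans cells, was at 0 in the 3 control libraries and at 18.3, 13.3 and 23.7 normalized counts in Eed iKO (unadjusted p = 0.00242 and adjusted p = 0.13 from limma), and Lyz2 was at 0 in the controls and at 55.9, 65.1 and 0. Summed over the 7 Langerhans and dendritic cell markers in the table, normalized counts were 315, 277 and 587 in control and 979.5, 471 and 469.6 in Eed iKO, and 2 of 7 had an unadjusted p under 0.05, both higher. Of these 7 markers, 5 had log2 fold changes above 0 and 2 below. The sums over 6 macrophage markers were 157, 284 and 753 in control and 353, 454 and 763 in Eed iKO. All 3 macrophage markers tested had log2 fold changes above 0, and 1 was higher at an unadjusted p of 0.00961 (adjusted p = 0.184, from limma). The Langerhans and macrophage sums both overlapped between the groups. The sums over 5 T cell markers did not overlap, at 805, 380.2 and 477 in control and 305, 246 and 305 in Eed iKO. Of 4 T cell markers tested, 3 had log2 fold changes below 0 and 1 above. Thy1 was the 1 with an unadjusted p under 0.05, lower in Eed iKO (unadjusted p = 0.0257 and adjusted p = 0.264 from limma). The sums over 6 fibroblast markers were 1688, 2539 and 3279 in control and 1658, 1293 and 1929.8 in Eed iKO, with Col1a1 at a log2 fold change of -1.48 (unadjusted p = 0.0174 and adjusted p = 0.228 from limma). Of 4 fibroblast markers tested, 2 had log2 fold changes above 0 and 2 below, Col1a1 among the latter. Of 5 melanocyte markers tested, 3 had log2 fold changes above 0 and 2 below, and 1 was higher at an unadjusted p of 0.0132 (adjusted p = 0.208, from limma). Proliferation markers summed to 1417, 3789 and 1393 in control and to 10258, 9898 and 1066 in Eed iKO, with Eed iKO replicate 3 apart from its group. All 5 proliferation markers had log2 fold changes above 0, and 1 had an unadjusted p under 0.05 (0.0178, adjusted p = 0.23, from limma). The part of these in the values of the interferon-stimulated genes was not tested. Without Eed iKO replicate 3 there were still 0 members past either threshold, and the median log2 fold change was 0.195.

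**Figure D4:**
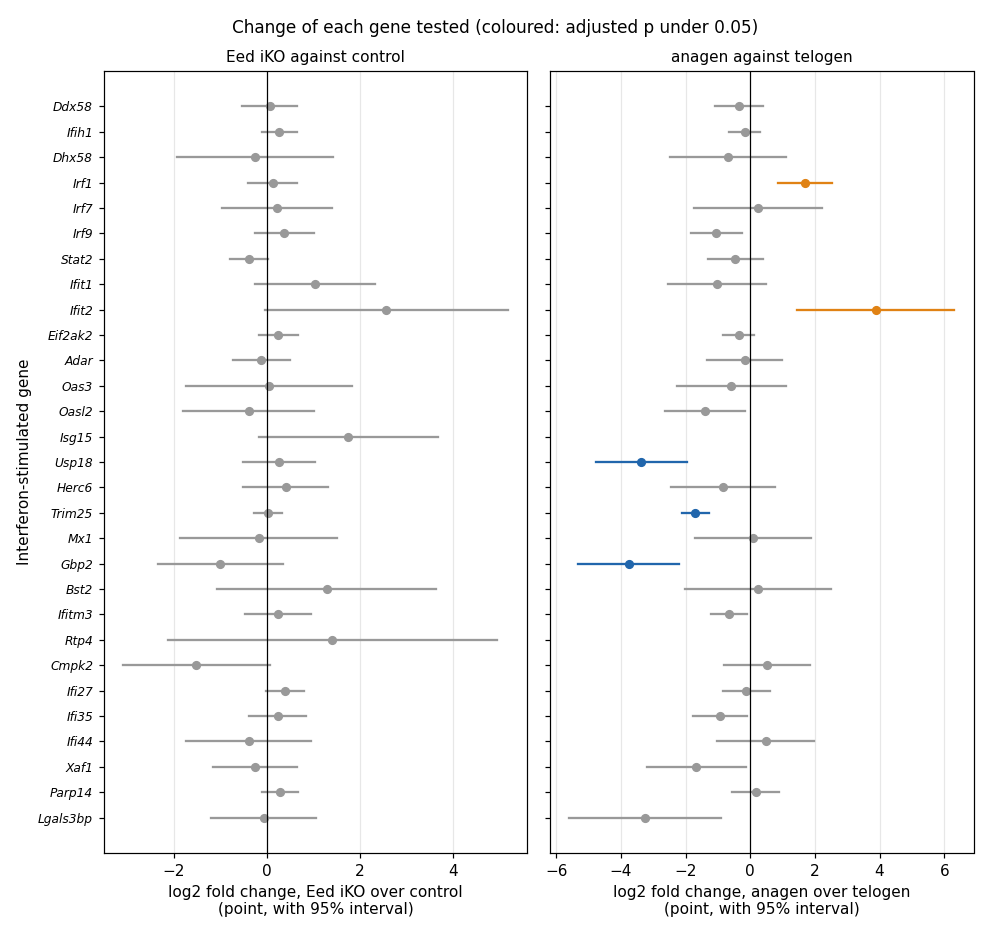
Log2 fold change (horizontal axes, point with its 95% interval) of each member tested, for Eed iKO over control on the left and anagen over telogen on the right, with blue and orange for an adjusted p under 0.05 and grey for the rest. On the left every interval includes 0. On the right, among the coloured genes, Trim25, Usp18 and Gbp2 lie below 0 and Irf1 and Ifit2 above it. The grey intervals of Irf9, Oasl2, Ifitm3, Ifi35, Xaf1 and Lgals3bp also lie wholly below 0 there.

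The comparisons share no library, and 27 members were tested in both. The log2 fold changes were above 0 in both for 5 members, below 0 in both for 7, above 0 in Eed iKO and below 0 in anagen for 12, and the reverse for 3. Across these 27 genes, which are not independent replicates, Spearman's rho was 0.158 and Pearson's r 0.476. Ifit2 had the largest positive value in each comparison, at 3.88 in anagen and 2.56 in Eed iKO. Trim25, lower in anagen than in telogen, differed between Eed iKO and control by less than its standard error.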

How the data were processed

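RNA from sorted HFSCs was sequenced in 12 libraries, 3 for each group named in the labels. According to the study's methods, the authors pseudoaligned paired reads to Gencode vM20 transcripts (mm10) with kallisto 0.42.5 and normalized with DESeq2. The deposited normalized counts are a signal per gene and library, and in the Eed experiment they are reads divided by a size factor. Other deposited columns hold the authors' mean, log2 fold changes, scores of their test with standard errors, and p-values, which were not used. For the Eed experiment 100% of values were whole multiples of 1 constant per library (tolerance 0.1), so reads were recovered; for the hair cycle 41.1% to 51.3% were.

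Log2(normalized count + 1) was tested with limma 3.58.1 with an intensity trend after filterByExpr (minimum 10), each table on its own, with Benjamini-Hochberg adjustment over all genes. As alternatives, edgeR 4.0.16 and DESeq2 1.42.0 were run on recovered Eed reads, with a pseudocount of 0.1, no filter, TMM factors, no trend, a replicate block and each library left out. In a simulation where 200 genes had a log2 fold change of 2.5, limma recovered 100% with 5 false calls among 15291 genes (Eed) and 97.5% with 15 among 13627 (hair cycle). Every simulated gene had a dispersion of 0.1, so these shares do not give the power for members that vary more between libraries. Ifit2, at a log2 fold change of 2.56 (SE 1.18) in Eed iKO, was not called. Coordinates, transcript lengths, exon overlaps and 31-base words are from GENCODE vM21 (GRCm38); promoters are from RefSeq. The kit does not mark strand. Groups were taken from the labels. The study describes the replicates as biological, from at least 2 litters for the Eed experiment, without tying libraries to animals; litters of the hair cycle mice are not given in the sources used here.

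The members and lists were chosen with earlier results of these data known, so no test over a list was made. A gene of the pathway lists is not reported here, and the counts include it. Every library value and statistic is given for members with an unadjusted p under 0.05 or past a threshold and for the 6 largest log2 fold changes; the 6 highest means and members at 0 in a group are named; the remaining members are given by values or ranges.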

Additional observations from a re-analysis of the deposited data

How the results depend on the processing

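No log2 fold change of the 11 hair cycle genes with an unadjusted p under 0.05 changed direction under any of the 11 alternatives. In the hair cycle comparison the 5 members with an adjusted p under 0.05 became 1 (Trim25) without the filter on low values, where the adjusted p was 0.0532 for Gbp2 and 0.0978 for Usp18 and the count over all genes was 468 in place of 1556. The count over all genes was 842 without the trend. Leaving out a library gave 3 to 6 members and 597 to 1529 genes. The 3 fits without an anagen library lost Irf1 and Ifit2, while Lgals3bp was called without telogen replicate 1 (adjusted p = 0.0397) and Xaf1 without telogen replicate 2 (adjusted p = 0.0379). Over all alternatives the adjusted p ran from 0.0116 to 0.0911 for Irf1 and from 0.0176 to 0.302 for Ifit2, which was called in 5 of 11 and whose log2 fold change was 2.37 without telogen replicate 2. The median log2 fold change of the members ran from -0.597 to -0.341 when a library was left out. In the Eed comparison it ran from 0.088 to 0.25. There 0 members had an adjusted p under 0.05 under each of the 13 alternatives, while the count over all genes was 4 with limma, 673 with DESeq2 and 203 without Eed iKO replicate 3. At the thresholds of the methods 0 members became 1 without the filter (Ifit2, with 425 genes in place of 263), 2 without the trend (Isg15 and Cmpk2) and 0 to 4 when a library was left out, 4 of them without control replicate 1 (Isg15, Ifit1, Bst2 and Cmpk2), 1 without control replicate 3 (Ifit2) and 1 without Eed iKO replicate 2 (Gbp2). The causes of these changes were not tested. TMM factors moved the median of all genes by 0.003 and -0.008. edgeR and DESeq2 were not run on the hair cycle table, whose reads could not be recovered.

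With the replicate number as a block, 0 members of the Eed comparison had an adjusted p under 0.05 (424 of all genes) and 1, Ifit2, passed the thresholds of the methods. In the hair cycle comparison 5 and 4 members passed, as without the block (1224 of all genes). Deviations of same-numbered libraries correlated at -0.035, -0.071 and -0.029 in the hair cycle table, where 0 of 6 libraries were nearest to their own number. In the Eed table they correlated at 0.039, 0.068 and 0.193, and 4 of 6 libraries were nearest to their own number. These Eed values do not decide whether the numbers mark pairs. The labels give replicate numbers and state no pairing, and the main fits did not take the numbers as pairs. The hair cycle depth is unknown, and with 3 libraries a group the Eed table left members with low counts, such as Isg15 at 3 to 52 reads, with standard errors of up to 1.60.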

Other observations

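Several of the interferon-stimulated genes lie side by side in the genome, and neighbours did not always have the same direction. Ifit2 and Ifit1 lie on chromosome 19 with Ifit3 and Ifit3b between them, at gaps of 7111, 19238 and 27469 bases, all on the plus strand. In anagen against telogen Ifit2 had a log2 fold change of 3.88 (SE 1.11) and Ifit1 one of -1.03 (SE 0.69), while in Eed iKO against control both were above 0, at 2.56 (SE 1.18) and 1.03 (SE 0.58). Rsad2 and Cmpk2 lie 12751 bases apart on chromosome 12 on opposite strands. Rsad2 had 20, 6 and 19 reads in control and 1, 7 and 10 in Eed iKO, and Cmpk2 45, 45 and 84 reads in control and 24, 13 and 10 in Eed iKO. Gbp3 and Gbp2 lie 47392 bases apart on chromosome 3 on the plus strand. Both had higher levels in every telogen library than in every anagen library, but telogen replicate 2 stood out for Gbp3 (5.82, 65.6 and 3.80 normalized counts in telogen replicates 1, 2 and 3) and not for Gbp2 (46.5, 40.0 and 41.8). The differences between neighbours were not tested.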
